A study of Mus musculus with 6 samples.

Results

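Cluster 2 was 1 of the 13 groups into which the authors' Leiden clustering divided the cells of the embryonic outflow tract (OFT), the vessel that leaves the heart and is later split into the aorta and the pulmonary trunk. Its members were all segmented cells that the deposited values placed inside the OFT outline and in this cluster, 993 of 6078 OFT cells (16.3%) and of 364721 cells imaged in all. The cells came from 6 mouse embryos at E11.5, imaged in transverse section by MERFISH, which reads single RNA molecules in fixed tissue by optical barcodes, here for a panel of 140 genes. The 3 controls were Ankrd11-nchet embryos (Ankrd11 fl/WT;RosaYFP STOP/STOP;Wnt1Cre2) and the 3 mutants were Ankrd11-ncko embryos (Ankrd11 fl/fl;RosaYFP STOP/STOP;Wnt1Cre2). Both groups carried the Cre driver and the YFP reporter allele, so the controls had lost 1 copy of *Ankrd11*, which encodes a chromatin regulator, in the neural crest. Wnt1Cre2 deletes in the neural crest lineage and leaves the other OFT cells with their copies, and the reporter was not read in the values used here, so which cells had recombined could not be told. Embryos of either sex from at least 2 litters were used, 4 of them (2 of each genotype) processed at one facility and 2 (1 of each genotype) at another, and the sources used here do not say which.

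Cardiac neural crest cells (CNCCs) leave the dorsal neural tube, cross the pharyngeal arches and enter the cushions of the OFT, where they condense into the septum that divides the vessel. Some of their descendants become the smooth muscle in the walls of the great arteries. The study's methods classed clusters 2, 3 and 7 as CNCCs from *Penk*, the proenkephalin gene, *Sox9*, a transcription factor gene of the neural crest, *Pdgfra*, a growth factor receptor gene of mesenchyme, and *Postn*, which encodes the matrix protein periostin. *Penk* and the chemokine gene *Cxcl12* are the markers that give cluster 2 its working name of maturing neural crest mesenchyme. Counts of single genes, cell positions and cell volumes are not analysed here, so that name was not checked against its markers, and the cells are called cluster 2 throughout. For each cell, the embryo, the cluster, the total of decoded transcripts and how many panel genes it detected were known.

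All 6 embryos held cluster 2 cells, 168, 182 and 168 in the controls (518 in all) and 228, 191 and 56 in the mutants (475 in all). The first and second mutants had the highest counts of any embryo and the third the lowest, with 5.64% of all cluster 2 cells. No cell identifier occurred in more than 1 embryo. The third mutant stood apart from the others in the share of cluster 2, so the results on shares are also given without it. Cells of 1 section share their source, so genotypes were compared over embryos with exact 2-sided permutation tests, for which 3 embryos against 3 cannot give a p below 0.1, and p-values of 11 single values were adjusted together by the Benjamini-Hochberg method. The cluster labels depended on an outline drawn by hand and on a clustering by the panel genes themselves, whose levels in the 2 genotypes were not tested here, so a share below is a share of cells assigned to the cluster.

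Cluster 2 was among the largest cell groups of the OFT in 5 of 6 embryos. It made up 18.5% (95% Wilson interval 16.1% to 21.1%), 18.5% (16.2% to 21.0%) and 15.9% (13.9% to 18.3%) of the OFT cells of the controls. In the mutants it made up 17.6% (15.7% to 19.8%), 18.6% (16.4% to 21.1%) and 6.88% (5.34% to 8.83%). These intervals cover counting error only. By number of cells it ranked 2, 1 and 2 among clusters 1 to 10 of the controls and 1, 1 and 6 in the mutants. The first mutant lay within the range of the controls, the second just above their highest value and the third below them all. Group means of 17.6% ± 1.47 and 14.4% ± 6.52 (SD, n = 3 and 3) differed by -3.25 percentage points (exact permutation p = 0.7, adjusted p = 0.963). In size this was less than the SD of the mutant embryos. Without the third mutant the difference was 0.50 percentage points.

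Weighting each cell by its transcripts left the third mutant lowest. Cluster 2 cells held 737698 decoded transcripts, which were 22.4%, 21.7% and 18.6% of all OFT transcripts in the controls and 22.4%, 19.8% and 8.49% in the mutants. In each embryo this share was higher than the share of cells. Only the third mutant lay below the range of the controls. The means of 20.9% ± 2.03 and 16.9% ± 7.42 (SD, n = 3 and 3) differed by -4.00 percentage points (exact permutation p = 0.7, adjusted p = 0.963), and by 0.21 without that embryo.

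Set against each other cluster of the same embryo, the number of cluster 2 cells was on average lower in the mutants over its CNCC neighbours, clusters 3 and 7, and higher over cluster 1, but no ratio passed the test. The lower mean was not limited to those neighbours. Log2 differences against clusters 4, 5, 6 and 8 were -0.02, -0.16, -0.59 and -0.31, and against clusters 9 and 10 they were 0.12 and 0.01. The ratio of cluster 2 to cluster 3 cells was 4.10, 1.64 and 1.09 in the controls and 1.41, 1.12 and 0.187 in the mutants. The highest ratio was that of the first control embryo and the lowest that of the third mutant, and the other 4 embryos lay between 1.09 and 1.64. On the log2 scale the group means differed by -1.55 (exact permutation p = 0.3), and by -0.63 without the third mutant. Against cluster 7 the ratio was 1.98, 9.10 and 3.57 in the controls and 3.26, 2.33 and 0.577 in the mutants, a log2 difference of -1.29 (exact permutation p = 0.4) that came to -0.54 with that embryo left out. Against cluster 1, the largest cluster outside the CNCCs over all embryos, the ratio was 0.792, 1.08 and 0.611 in the controls and 1.27, 1.19 and 0.80 in the mutants, a log2 difference of 0.40 (exact permutation p = 0.2). That value was 0.61 without the third mutant, 0.61 without the second control and 0.20 without the third control. Of the 9 ratios tested, 0 were free of overlap between the genotypes (0%), and every adjusted p over the 9 was 1; at 3 embryos against 3 the test cannot give an unadjusted p under 0.05. Cluster 2 outnumbered clusters 8, 9 and 10 in 6 of 6 embryos, and cluster 1 in 3 of 6. It outnumbered clusters 3 to 7 in 5 of 6 embryos, the exception being the third mutant, where clusters 2 and 4 held 56 cells each.

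**Figure D1:**
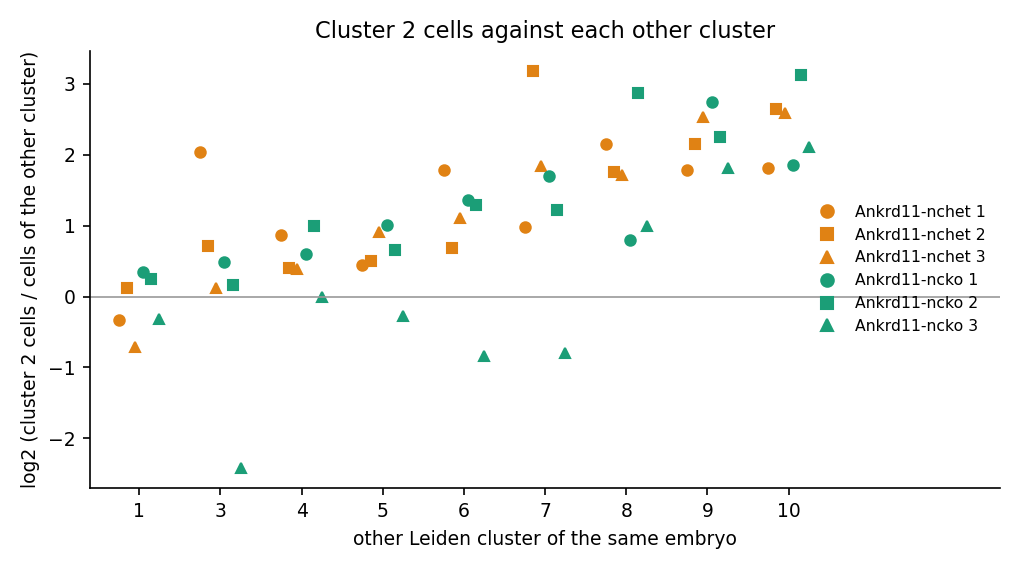
Number of cluster 2 cells over the number of cells of another Leiden cluster of the same embryo (y axis, log2) for clusters 1 and 3 to 10 (x axis). Points are embryos, orange for Ankrd11-nchet and green for Ankrd11-ncko, and the grey line marks equal numbers; the third mutant lies lowest against clusters 3, 4, 5, 6 and 7, and the genotypes overlap in each of the 9 ratios.

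Cluster 2 cells were well measured in each section. Their median was 467, 894 and 696.5 decoded transcripts per cell in the controls and 658.5, 647 and 831 in the mutants. The lowest and the highest medians were both in control embryos, so the genotypes overlapped over the whole mutant range. On the log2 scale the means of the medians, 9.37 ± 0.47 and 9.47 ± 0.20 (SD, n = 3 and 3), differed by 0.09 (exact permutation p = 0.9, adjusted p = 0.99). Single cells held from 161 to 3001 transcripts, and only 7 of 993 held fewer than 200. At least 1000 transcripts were decoded in 219 cells (22.1%), with embryo shares of 4.17%, 37.9% and 26.8% in the controls and 21.5%, 13.6% and 41.1% in the mutants. Most of this variation was among cells of the same section, since 12.6% of the variance of log2 transcripts lay between embryos. The 75th percentile was 1.76, 1.81 and 2.14 times the 25th in the controls and 2.12, 1.91 and 2.04 times in the mutants. The genotypes overlapped in this spread within embryos, with a difference of 0.09 on the log2 scale (exact permutation p = 0.4, adjusted p = 0.88).

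**Figure D2:**
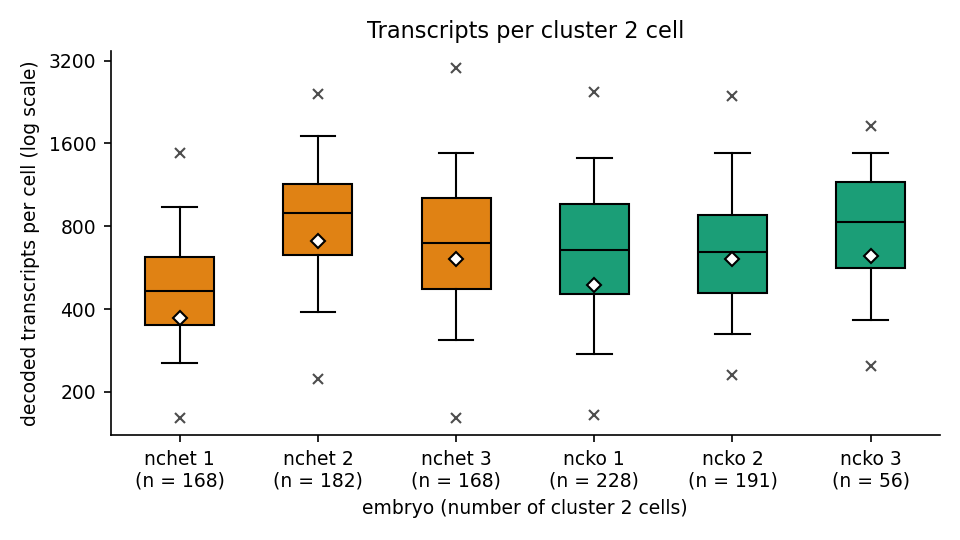
Decoded transcripts per cluster 2 cell (y axis, log scale) in each embryo (x axis, with the number of cells), orange for Ankrd11-nchet and green for Ankrd11-ncko. Boxes span the 25th to 75th percentiles with the median as a line, whiskers the 5th to 95th percentiles, crosses mark the lowest and highest cell, and white diamonds mark the median of all other OFT cells of the embryo, which lies below the median of cluster 2 in all 6 embryos.

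Compared with the rest of its own section, cluster 2 was rich in transcripts, though some clusters held more. Its median was 1.26, 1.27 and 1.14 times that of the other OFT cells in the controls and 1.35, 1.07 and 1.33 times in the mutants. Cells outside the outline held fewer, and the cluster 2 median was 1.38, 1.81 and 1.49 times theirs in the controls and 1.58, 1.30 and 1.63 times in the mutants. The fold over the other OFT cells overlapped between the genotypes and differed by 0.02 on the log2 scale (exact permutation p = 1, adjusted p = 1). The group means of this fold were 0.29 in the controls and 0.31 in the mutants on that scale. Among cells with at least 200 transcripts both fell to 0.15. Because the clusters were built from these cells' own counts, the order of clusters within an embryo is a description without a test. Cluster 2 medians exceeded those of clusters 5, 7, 8 and 10 in 6 of 6 embryos and fell below that of cluster 6 in 6 of 6. Against cluster 3, the CNCC cluster most like it in depth, the median ratio was 1.11, 0.882 and 0.944 in the controls and 0.936, 0.906 and 1.13 in the mutants. It lay above 1 in 2 of 6 embryos, 1 of each genotype (exact permutation p = 0.8 for the genotype difference of 0.01 on the log2 scale, adjusted p = 0.978).

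A cluster 2 cell detected most of the panel. The median was 91.5, 106 and 103 genes of 140 in the controls and 99, 94 and 102 in the mutants, and single cells detected 59 to 131. The genotypes overlapped, with a difference of -1.83 genes between the means (exact permutation p = 0.7, adjusted p = 0.963). Across cells of 1 embryo, genes and transcripts were closely related, with Spearman's rho from 0.921 to 0.951 in the 6 embryos. Both measures come from the same decoded molecules of the same cell. Genes were therefore also compared among cells of like depth.

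At like depth, cluster 2 cells of the mutants detected fewer panel genes than those of the controls. In cells with at least 400 and under 800 transcripts the median was 96, 96 and 96 genes in the controls (84, 60 and 74 cells) and 93.5, 90 and 93 in the mutants (102, 98 and 23 cells). Each mutant embryo lay below each control embryo, and the lowest was the second mutant. Means over embryos, 96 ± 0 and 92.2 ± 1.89 genes (SD, n = 3 and 3), differed by -3.83 genes. The p was the smallest this design allows (exact permutation p = 0.1), and the difference did not pass adjustment over the 11 values (adjusted p = 0.55). The cells in this window had median transcripts of 550, 612.5 and 584.5 in the controls and 560, 603.5 and 579 in the mutants, which overlapped. Between the third mutant and the third control, whose cell identifiers share the first 7 digits, the difference was -3.0 genes, and among the other 4 embryos it was -4.25.

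The group means kept their order at lower and higher depth. In each of 6 bins from 200 up to 1400 transcripts the mean number of genes per cell was lower in the mutant group. The differences were -4.05 to -2.34 genes. Bins between 400 and 800 transcripts hold the same cells as the window above, and only the other bins are of another depth. Embryos of the genotypes did not overlap in 4 of the 6 bins. In the bin from 500 up to 600 transcripts the means were 95.8, 94.4 and 96.6 genes in the controls and 93.8, 89.3 and 91.6 in the mutants. Similarly, in the bin from 1000 up to 1400 transcripts they were 112, 112 and 113 genes against 109, 108 and 110. The genotypes overlapped in the bins from 200 up to 400 and from 600 up to 800 transcripts, and in the latter the first mutant, with 101 genes, lay within the control range of 101 to 102. The third mutant contributed as few as 4 cells to a bin. With all embryos set to the depth profile of the pooled cells over 7 narrower bins, the values were 100.2, 99.0 and 100.1 genes in the controls and 98.7, 94.2 and 97.2 in the mutants, a difference of -3.09 genes (exact permutation p = 0.1).

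**Figure D3:**
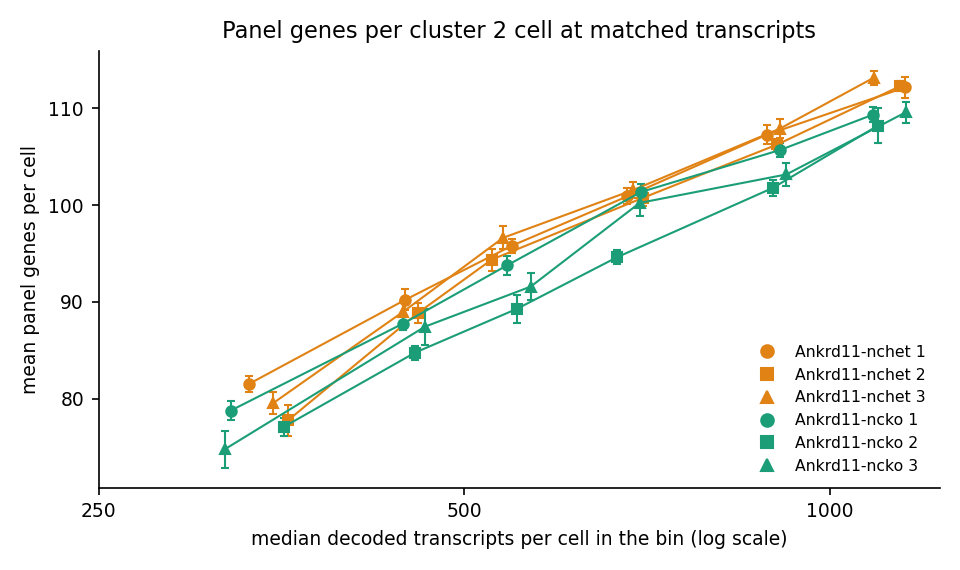
Mean number of panel genes detected per cluster 2 cell (y axis) against the median decoded transcripts of the cells in each of 6 bins from 200 up to 1400 transcripts (x axis, log scale), with 1 line per embryo, orange for Ankrd11-nchet and green for Ankrd11-ncko, and bars of 1 standard error over cells. The mutant group mean is lower in 6 of 6 bins, and the second mutant is the lowest in 5 of the 6.

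This difference was not shown to be particular to cluster 2. The same measure in cluster 4 was 88, 87 and 91 genes in the controls and 85, 86 and 84 in the mutants, again without overlap and with a difference of -3.67 genes (exact permutation p = 0.1). In all 5 other clusters with at least 10 cells of this depth in each embryo (clusters 1, 3, 4, 5 and 6) the mutant mean was lower, with differences of -3.67 to -0.67 genes, as it was in cells outside the outline, with -1.67 genes (exact permutation p = 0.3). In cluster 3 the medians were 91, 93 and 95 genes in the controls and 93, 91 and 93 in the mutants. Within this wide window the genotype difference of cluster 2 minus that of cluster 3 was -3.17 genes (exact permutation p = 0.1, the smallest possible, and adjusted p = 0.6 over 6 such comparisons). The same contrast with cells outside the outline was -2.17 genes (exact permutation p = 0.2, adjusted p = 0.6), and with cluster 4 it was -0.17 genes (exact permutation p = 1, adjusted p = 1). For clusters 1, 5 and 6 it was -2.0, -2.33 and -0.83 genes (exact permutation p = 0.4, 0.4 and 0.7, adjusted p = 0.6, 0.6 and 0.84).

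Within each embryo, cluster 2 cells detected slightly more panel genes than cluster 3 cells of the same depth. The excess was 1.84, 2.36 and 2.38 genes in the controls and 1.75, 1.72 and 2.00 in the mutants. It was above 0 in 6 of 6 embryos, and the genotypes overlapped, with a difference of -0.37 genes (exact permutation p = 0.2, adjusted p = 0.55). Matched in these narrow bins, the contrast with cluster 3 was much smaller than the -3.17 genes of the wide window. The window and the bins also differed in their range of depth and in how genes were summarised over cells. Which of these made the values differ was not tested. The same genotype difference in the excess was -2.02, -1.38, -0.54 and 0.14 genes for clusters 1, 4, 5 and 6 (exact permutation p = 0.2, 0.3, 0.8 and 0.9). Cluster 2 also exceeded clusters 4, 5, 6 and 9 in 6 of 6 embryos, by up to 17.1 genes over cluster 5. It exceeded cluster 8 in 5 of 6 embryos, with a value of -4.43 genes in the second mutant. Against cluster 1 the order was the other way, since its cells detected more genes than cluster 2 cells of the same depth in 6 of 6 embryos, and the value of cluster 2 minus cluster 1 lay between -5.81 and -1.71 genes. Which genes made up these differences was not analysed here.

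Among the cells classed as CNCCs, the share assigned to cluster 2 varied with depth. Over all depths the share was 57.1%, 58.1% and 45.5% in the controls and 49.6%, 43.0% and 12.4% in the mutants, which differed by -18.6 percentage points between the means (exact permutation p = 0.2, adjusted p = 0.55). With the third mutant left out this became -7.31. Of cells with under 200 transcripts, cluster 2 took 7 of 246, and cluster 7, whose cells hold few transcripts, took 235. In the band from 400 up to 800 transcripts it took 84 of 106, 60 of 87 and 74 of 139 CNCCs in the controls (79.2%, 69.0% and 53.2%) and 102 of 193, 98 of 194 and 23 of 167 in the mutants (52.8%, 50.5% and 13.8%). Each mutant embryo lay below each control embryo in this band, though the third control and the first mutant differed by less than 1 percentage point (difference of means -28.1 percentage points, exact permutation p = 0.1, and -15.5 with the third mutant left out). The band from 200 up to 400 transcripts overlapped, with a difference of -17.9 percentage points (exact permutation p = 0.5) that shrank to -5.08 without the third mutant. At 800 transcripts or more, cluster 2 took 18 of 18, 110 of 187 and 67 of 133 in the controls and 86 of 141, 61 of 128 and 29 of 160 in the mutants, and the genotypes overlapped, with a difference of -27.5 percentage points (exact permutation p = 0.3) or -15.4 without that embryo. Over all OFT cells in the band from 400 up to 800 transcripts the share of cluster 2 differed by -1.76 percentage points (exact permutation p = 0.9), or by 2.84 with the third mutant left out.

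With all embryos weighted to 1 depth profile, the share of cluster 2 among CNCCs was 74.6%, 54.5% and 44.9% in the controls and 49.6%, 41.8% and 12.2% in the mutants. The value of the first control leans on its 18 CNCCs with 800 transcripts or more, all in cluster 2. That band was weighted by the CNCCs of all embryos. The first mutant lay above the third control embryo, so the genotypes overlapped. The group means, 58.0% ± 15.2 and 34.5% ± 19.8 (SD, n = 3 and 3), differed by -23.5 percentage points (exact permutation p = 0.2, adjusted p = 0.55). Without the third mutant the difference was -12.3 percentage points, and without the first control -15.3. Taken over all OFT cells in place of CNCCs, the share standardised in the same way was 17.5% and 14.5%, a difference of -3.02 percentage points (exact permutation p = 0.7).

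**Figure D4:**
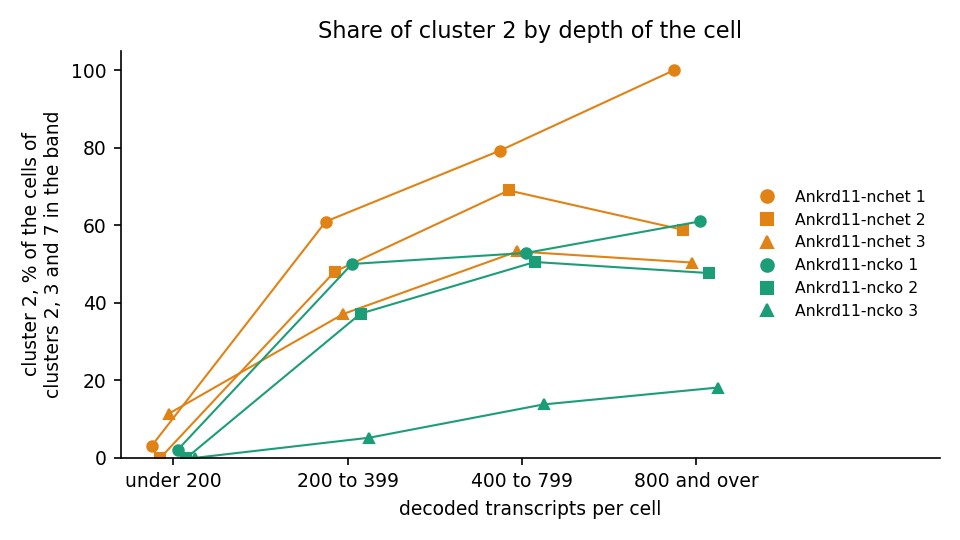
Share of cluster 2 among the CNCC-classified cells of clusters 2, 3 and 7 (y axis, %) in 4 bands of decoded transcripts per cell (x axis), with 1 line per embryo, orange for Ankrd11-nchet and green for Ankrd11-ncko. The third mutant lies lowest in the 3 bands from 200 transcripts up, at 5.19%, 13.8% and 18.1%.

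The balance of cluster 2 and its CNCC neighbours also varied within sections. Cell identifiers fall into groups that share the digits at positions 9 to 13; what these digits stand for is not given in the sources used here, and the OFT cells of an embryo lay in 3 or 4 of 56 to 104 such groups in its section. Among groups with at least 20 CNCCs, the share of cluster 2 ranged from 26.0% to 64.0%, 51.1% to 80.8% and 40.4% to 61.2% in the controls and from 47.9% to 56.1% and 26.3% to 71.6% in the first and second mutants. The third had a single such group, with 12.5%, which held all 56 of its cluster 2 cells. In the second mutant, one group held 73 cells of cluster 2 and 15 of cluster 3, another 75 and 59, and another 41 and 92. The range within a section was thus widest in the second mutant, at 45.3 percentage points, and came to 8.20 in the first mutant. The second mutant had 3 such groups, and the first mutant and each control had 2. A range tends to grow with the number of groups, so these ranges are not on a like footing. Over whole embryos the same share lay between 12.4% and 58.1%. The part of these groups in the differences between embryos was not tested.

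**Figure D5:**
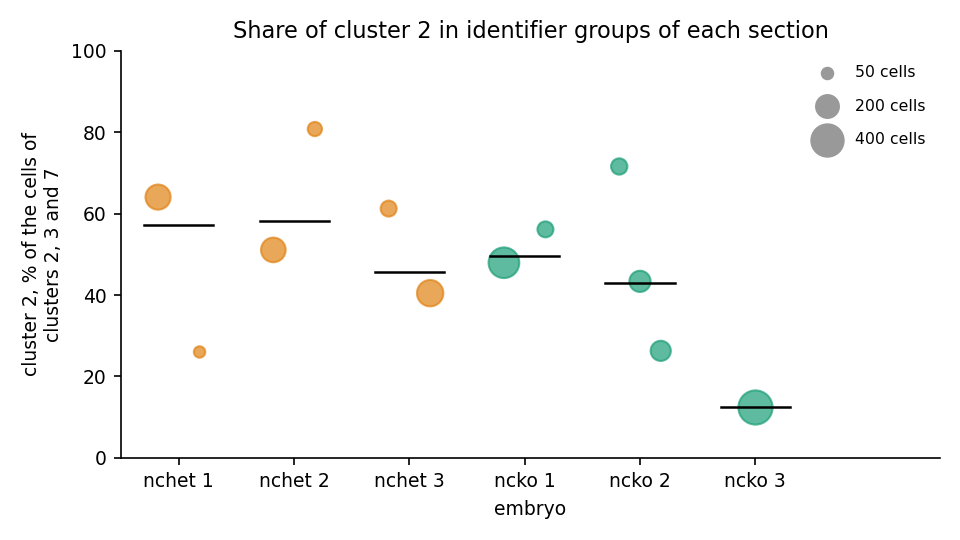
Share of cluster 2 among the CNCC-classified cells of clusters 2, 3 and 7 (y axis, %) in groups of cells with the same identifier digits at positions 9 to 13, for groups with at least 20 such cells, in each embryo (x axis), orange for Ankrd11-nchet and green for Ankrd11-ncko. Circle area grows with the number of CNCC-classified cells, and a black line marks the share of the whole embryo. The widest range is in the second mutant, from 26.3% to 71.6%, which also has the most groups.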

How the data were processed

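MERFISH was run on sections of 3 Ankrd11-nchet and 3 Ankrd11-ncko embryos; GEO's labels gave the groups, and replicate numbers follow accession order and pair nothing. Per the study's methods, the authors used MERlin for decoding, Cellpose for segmentation, a hand-drawn polygon in squidpy for the OFT outline, and Seurat (also in the submitters' processing notes) for a joint Leiden clustering of OFT cells from the 6 embryos, run on principal components. The sources used here give neither its resolution nor a method of integration. The deposited values used here are raw counts, 1 of transcripts and 1 of panel genes for each cell, beside the authors' outline mark and cluster label. No column of other samples was present.

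Shares, medians and ratios per embryo were computed from these counts with Python 3.11.15, pandas 2.3.3 and numpy 2.4.6, and figures with matplotlib 3.10.9. Exact 2-sided permutation tests over embryos enumerated all divisions of the embryos in Python. The 95% Wilson intervals and Spearman's rho came from scipy 1.17.1. Benjamini-Hochberg adjustment was made over 11 single values, separately over 9 ratios, and over 6 contrasts of cluster 2 with other cells in the window below, at a threshold of 0.05. The p-values given for single bands of transcripts and for alternatives were not adjusted. Genes were matched on depth in a window from 400 up to 800 transcripts, or in bins of 0.25 on log2 transcripts with at least 3 cells of each cluster. The permutation test was checked on short lists with known answers. The share of cluster 2 and the matching in bins were checked on simulated cells, and the window was not. Because values of single genes are not analysed here, genes are named as background only, by a rule that kept to the study's markers and *Ankrd11*. Members and comparisons were chosen with earlier results of these data known. Alternatives were leaving out each embryo, embryos of 1 title stem, the pair with like identifiers and the other 4, minimum transcripts, pooled cells, means, and other windows, bins and weights. Added after the data were seen were identifiers with a 1 at position 14, genes standardised over bins, the finer windows, the matched measure in other clusters and outside the outline, the identifier groups, and permutation within the sets of embryos set apart by their identifiers.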

Additional observations from a re-analysis of the deposited data

How the results depend on the processing

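Direction was kept in every alternative run by the difference in panel genes at matched transcripts and in the excess of genes over cluster 3. So it was by the lower share of cluster 2 among CNCCs, with and without standardising for depth. Genes at matched transcripts ranged from -6 (3 embryos whose titles share a stem) to -2.33 (300 up to 600 transcripts). Some alternatives could not alter a value. All 3 controls had 96 genes in the window, so leaving out a control left the difference at -3.83. Neither minimum of transcripts removed a cell from the window. The difference in the excess over cluster 3 also stayed at -0.37 under both minima. Of 146 alternatives of the 11 single values, 124 kept direction, and both counts include the unchanged values above. Some had a large change of size: the depth-standardised share ranged from -32.7 to -3.02 percentage points, the latter over all OFT cells. Leaving out 1 embryo at a time gave -6.17 to 1.08 panel genes per cell, -0.16 to 0.31 log2 transcripts per cell, -0.0828 to 0.11 relative to cluster 3, -0.0369 to 0.135 relative to other OFT cells, -5.38 to 0.50 percentage points of OFT cells and -6.77 to 0.21 of OFT transcripts. Between the third mutant and the third control, whose identifiers share the first 7 digits, the differences were 0.25 log2 relative to cluster 3, 0.22 relative to other OFT cells, -9.06 points of OFT cells, -10.1 of OFT transcripts and -0.0653 in log2 spread. In the other 4 embryos transcripts differed by -0.11 relative to cluster 3 and -0.0775 relative to other OFT cells. Relative to other OFT cells they also differed by -0.25 in the embryos of 1 title stem, -0.00064 with at least 200 transcripts and -0.0131 with means; relative to cluster 3, -0.0569 with means. The spread from 10th to 90th percentile differed by -0.0135. Ratios free of overlap numbered 0 to 1 of 9 without 1 embryo and 4 in the other 4 embryos. In those 4 embryos a ratio free of overlap has an exact permutation p of 0.333, the smallest possible there. Lack of overlap is thus common among so few embryos without any genotype difference, and the count was not read as one.

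The mutant minus control difference in the log2 ratio of cluster 2 to cluster 4 cells was 0.16 in the other 4 embryos and 0.0272 with at least 200 transcripts, and to clusters 5 and 6 0.36 and 0.092 in the other 4 embryos. Leaving out 1 embryo gave differences of -0.25 to 0.24 for cluster 4, -0.43 to 0.21 for cluster 5, -0.96 to 0.13 for cluster 6, -0.97 to 0.0661 for cluster 8, -0.12 to 0.35 for cluster 9 and -0.37 to 0.27 for cluster 10. The cause of these changes was not tested. Replicate numbers only name embryos in accession order and give no pairs. Exact permutation within the pair with like identifiers and within the other 4 embryos keeps each difference and cannot give a p below 0.167, which was reached by the genes at matched transcripts, the excess over cluster 3, both shares among CNCCs and the ratios to clusters 1 and 3. The 56 cells of the third mutant and the 3 embryos per genotype limit every comparison.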

Other observations

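Another part of the cell identifiers moved with the genotype. The digit at position 14 was 1 or 2 in each cell, with a meaning not given in the sources used here. It was 2 in 14.3%, 21.4% and 9.52% of cluster 2 cells in the controls and in 5.26%, 7.33% and 3.57% in the mutants, without overlap. Among the other OFT cells it was 2 in 20.2%, 24.9% and 19.6% in the controls and 10.4%, 16.3% and 10.7% in the mutants. In cluster 2 cells with a 1 at this position the difference in panel genes from 400 up to 800 transcripts was -4.0 genes, against -3.83 in all cells.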
